A study of Mus musculus with 2 samples.

Results

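Plasmacytoid DC (pDC) were selected on measured UMI counts among CD11c+ spleen cells of WT mice and H2-Aa cit/cit mice, as cells with at least 5 UMIs of Siglech and at least 1 UMI of Ly6d, Klk1 and Ccr9 together. A UMI is a tag that marks 1 captured RNA molecule. The rule gave 219 pDC among 19339 cells. Of these, 106 were among 7814 WT cells and 113 among 11525 H2-Aa cit/cit cells. The members were chosen by the 4 genes of the rule, so their levels are given as a description.

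Both libraries were made from naive 4-month-old female mice, with 3 mice pooled per genotype, and cells cannot be traced to single mice. WT mice were H2-Aa +/+ and the cit mice carried the ENU-induced citation (cit) allele of H2-Aa on both chromosomes in the germline, so that it was present in all of their cells. Spleen cells were enriched with beads for CD11c and then sorted as live CD45.2+ CD11c+ cells, and RNA was counted with a 3′ droplet kit. With 1 library per genotype there is no replicate error, so no test was made, and every interval below is a 95% interval that covers counting error alone. The mouse, the sort and the library cannot be told apart from the genotype.

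pDC are DC specialized in sensing viral nucleic acids in endosomes through TLR7 and TLR9 and in making large amounts of type I interferon. The E protein TCF4 directs their development and maintenance and works against the cDC program that ID2 favors. Mouse pDC display little CD11c, carry MHC-II, and at rest are poor stimulators of T cells.

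The MHC-II chain genes share a conserved promoter box, and its letters are shown because H2-Aa is the mutated gene and its neighbors are read beside it. The letters CTGATTGG, or CCAATCAG on the other strand, were searched in the RefSeq promoter stretches of GRCm38.p6 and are in capitals. They begin 51 bases before the H2-Aa start (chr17:34287831-34287910, minus strand) and 62 bases before the H2-Eb1 start (chr17:34305769-34305848, plus strand). They occur in 1346 of 32851 promoter stretches (4.1%). H2-Ab1 and Cd74 had no entry and were not searched.
H2-Aa: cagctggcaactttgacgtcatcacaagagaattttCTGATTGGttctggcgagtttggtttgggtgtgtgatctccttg
H2-Eb1: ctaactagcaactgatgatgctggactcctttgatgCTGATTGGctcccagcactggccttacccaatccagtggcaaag

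For the genes that chose the cells, the letters CACCTG, or CAGGTG on the other strand, were searched, since E proteins such as TCF4 recognize E-boxes of this kind. They were found in the stretches of Siglech (chr7:55768134-55768183), Klk1 (chr7:44225243-44225308) and Ccr9 (chr9:123767096-123767161), all on the plus strand, and in 6640 of all 32851 stretches (20.2%). Ly6d had no entry and was not searched. A match of letters is not a site of binding.
Siglech: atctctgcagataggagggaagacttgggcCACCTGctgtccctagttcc
Klk1: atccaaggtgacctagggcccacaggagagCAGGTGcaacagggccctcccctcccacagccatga
Ccr9: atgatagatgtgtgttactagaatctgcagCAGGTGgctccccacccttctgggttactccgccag

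pDC made up 1.36% (1.11 to 1.64) of WT cells and 0.980% (0.809 to 1.18) of cit cells, by exact Clopper-Pearson intervals. The difference was -0.376 percentage points (-0.702 to -0.0705, Newcombe interval), and it was below 0 in each alternative gate. A share of sorted cells depends on the CD11c gate, so fewer pDC in the spleen and fewer pDC within the sort cannot be told apart. WT pDC held 1164509 UMIs and cit pDC 971907. The median pDC had 10551.5 UMIs in WT and 7625 in cit, whereas the medians over all cells were 5492 and 5633. The median was lower in cit also in Siglech+ Cx3cr1+ cells (9988 and 8794 UMIs) and Ccr2+ Mgl2+ cDC2 (10631 and 8047), which are described below, and higher in cDC1 (10469 and 13697.5). The median mitochondrial share was 2.94% in WT and 2.86% in cit pDC, and 3 cit pDC were over 10%. A total of 31 cell barcodes occurred in both libraries.

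Cells near the threshold were more common among cit pDC. Siglech, a sialic acid-binding receptor of pDC, had between 5 and 75 UMIs per WT pDC with a median of 29, and between 5 and 48 per cit pDC with a median of 16. Cells with 5 to 10 Siglech UMIs were 11 of 106 in WT (10.4%) and 32 of 113 in cit (28.3%). Ly6d, a GPI-anchored protein of lymphoid-primed precursors and pDC, had a median of 21.5 UMIs in WT and 8 in cit, and no UMI in 12 WT and 25 cit cells. Klk1, a kallikrein protease, had medians of 2 and 1, and Ccr9, the receptor for CCL25, medians of 5 and 3. All of Ly6d, Klk1 and Ccr9 had a UMI in 68 WT (64.2%) and 60 cit pDC (53.1%). The second condition rested on 1 UMI alone in 4 WT and 11 cit cells. These per-cell counts are not scaled to depth, and the median pDC had 10551.5 UMIs in WT and 7625 in cit.

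**Figure D1:**
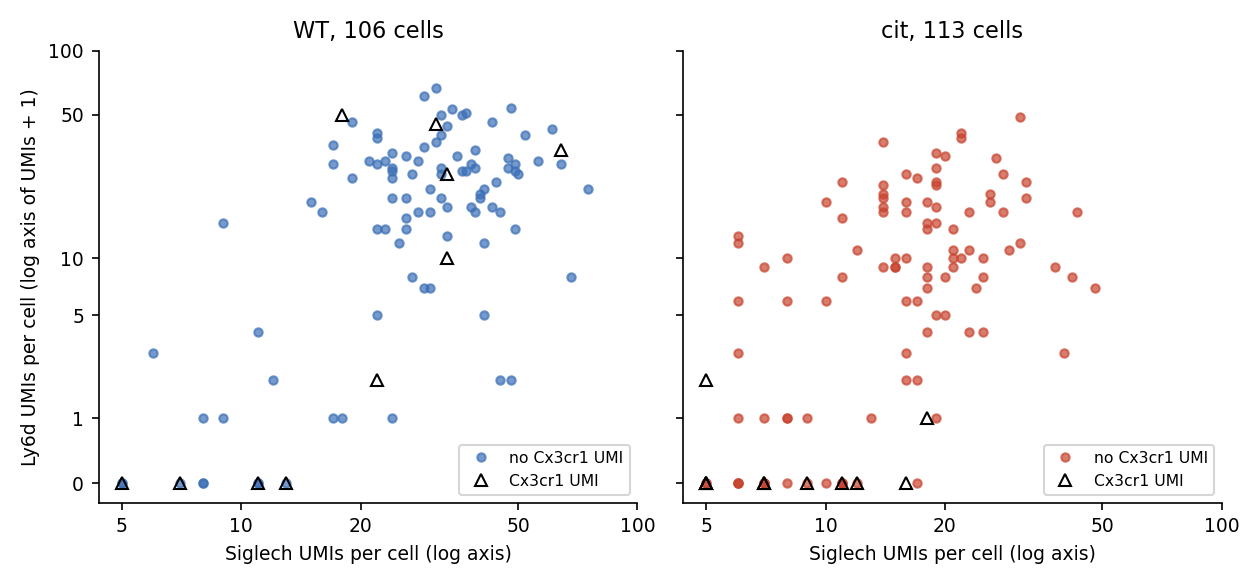
Siglech UMIs (horizontal, log axis) against Ly6d UMIs (vertical, log axis of UMIs + 1) of each of the 106 WT and 113 cit pDC, with cells that had a Cx3cr1 UMI as open triangles. Most WT cells lie at over 10 Siglech and over 5 Ly6d UMIs, whereas 32 cit cells against 11 WT cells lie at 5 to 10 Siglech UMIs.

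Just inside the rule, at 5 or 6 Siglech UMIs, there were 4 WT and 14 cit cells, and just outside, at 3 or 4, there were 12 and 28. CPM is the UMIs of a gene summed over the cells of a group, divided by all UMIs of the group and multiplied by 1000000. Tcf4, which the rule did not use, stood at 3882 CPM inside and 1849 CPM outside the threshold in WT, and at 3073 and 2212 CPM in cit. Grm8, a glutamate receptor gene, stood at 791 and 53.2 CPM in WT and at 341 and 97.0 CPM in cit. Cells just outside thus held less RNA of both genes in each library. A UMI of Cx3cr1, the fractalkine receptor, which marks transitional DC, was found in 10 WT and 11 cit pDC, and 4 and 9 of these had no Ly6d UMI. Leaving out cells with a Cx3cr1 UMI, among them the largest cell described next, moved the log2 ratio of Ly6d from -0.71 to -0.47, and leaving out the largest cell alone moved it to -0.57. How far such cells set the differences below was not tested.

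A single cit cell had 88367 UMIs from 9015 genes, while the next had 22352. It held 9.09% of all UMIs of the cit pDC, with 18 Siglech UMIs, 1 Ly6d UMI, 558 H2-Ab1 UMIs, 97 Dscam UMIs and 43 Gpr141 UMIs. Values without this cell are given beside those results where it turned a direction or moved a gene across 2-fold.

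Summed over the gated cells, the label held on genes that the rule did not use. All 11 other pDC markers (Tcf4, Bst2, Spib, Runx2, Irf8, Ly6c2, Cd300c, Cox6a2, Smim5, Pacsin1 and Klra17) stood at over 2-fold above all other cells in both libraries, on log2 ratios of CPM + 5. Of 4048 genes compared, 335 (8.28%) did so. Tcf4 RNA was at 3331 CPM in WT and 3194 in cit pDC, against 169 and 187 CPM in the other cells. Bst2, a surface antigen of mouse pDC that tethers budding virus, was at 3042 and 2351 CPM, against 85.1 and 125 CPM. Every pDC had a UMI of Tcf4. Bst2 lacked a UMI in 5 WT and 6 cit cells. Neither a Grm8 nor a Ly6d UMI was found in 6 WT (5.66%) and 14 cit pDC (12.4%). At least 10 UMIs of 8 genes led by Gpr141 and Dscam were found in 19 WT and 20 cit pDC. Under 5% ribosomal UMIs were found in 10 and 14. The sums thus do not show that each member is a pDC.

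The 10 genes that stood furthest above other cells in both libraries were Grm8, Ly6d, Siglech, Mctp2, Klk1, Ctsl, Cmah, Atp1b1, Prkca and Ly6c2, of which Ly6d, Siglech and Klk1 belong to the rule. Grm8 was at 2173 CPM in WT and 1321 in cit pDC and at 1.83 and 1.73 CPM in other cells. Ctsl, which encodes the lysosomal protease cathepsin L, was at 1052 and 724 CPM, against 7.84 and 8.64 CPM. Atp1b1, a subunit of the sodium-potassium pump, was at 595 and 391 CPM, against 4.35 and 2.87 CPM. NK-like cells, which the pooled other cells include, held more Atp1b1, at 181 CPM in WT and 200.1 in cit.

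**Figure D2:**
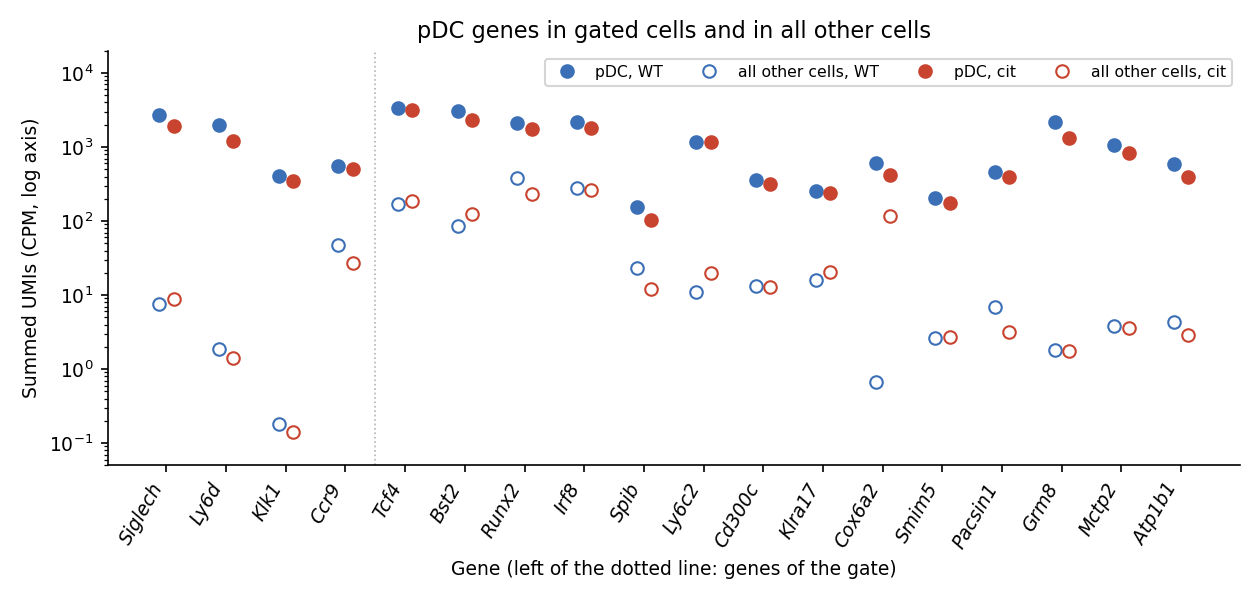
Summed RNA level (CPM, log axis) of the 4 genes of the rule and 14 other pDC genes in pDC (filled) and in all other cells (open) of the WT and cit libraries. In both libraries each of the 18 genes lies higher in pDC, and Cox6a2 is the gene whose level in other cells differs most between the libraries, at 0.662 CPM in WT and 115 in cit.

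H2-Aa encodes the alpha chain of the MHC-II molecule I-A and is the gene that carries the cit allele (chr17:34282744-34287823, minus strand, GENCODE vM21 on GRCm38). WT pDC held 4420 UMIs of it and cit pDC 54. Per cell, WT pDC had between 1 and 201 UMIs with a median of 35, and all 106 had at least 1. Per cit cell the count ran from 0 to 6 with a median of 0, and 40 of 113 had a UMI. The ranges met only between 1 and 6 UMIs. The level was 3796 CPM in WT and 55.6 in cit pDC, a log2 ratio of -6.09 (-6.51 to -5.71), so that H2-Aa RNA was low in the library labelled cit. The cit level was 1.46% of the WT level. NK-like cells, which should lack H2-Aa, gave 449 CPM in WT and 9.09 CPM (1 UMI) in cit, so the WT pDC level was well above free RNA.

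The H2-Aa difference was of like order in the compared DC gates. Cells with Siglech and Cx3cr1 UMIs but none of Ly6d, Klk1 or Ccr9 numbered 45 in WT and 66 in cit, cDC1 581 and 754, and Ccr2+ Mgl2+ cDC2 33 and 97. H2-Aa went from 6625 to 42.5 CPM in Siglech+ Cx3cr1+ cells, from 7043 to 45.8 CPM in cDC1 and from 11201 to 61.3 CPM in Ccr2+ Mgl2+ cDC2. The log2 ratios were -7.28, -7.26 and -7.51. The pDC ratio was nearer 0 than each of these, by 1.19 (0.54 to 1.85), 1.17 (0.76 to 1.58) and 1.42 (0.87 to 1.97) on the log2 scale. WT pDC started from the lowest level of the 4 gates.

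RNA of the partner chains showed no loss like that of H2-Aa in cit pDC. H2-Ab1, the beta chain that pairs with H2-Aa in I-A, was at 3166 CPM in WT and 3717 in cit, a log2 ratio of 0.23 (0.16 to 0.30). H2-Eb1, the beta chain of I-E, was at 2341 and 3503 CPM, with a ratio of 0.58 (0.51 to 0.65). The paper states that mice of the background strain make I-A alone as MHC-II, and that all MHC-II is lost without H2-Aa. The H2-Eb1 level is thus a level of RNA and does not show that cit pDC formed I-E. Cd74, the invariant chain that guides MHC-II from the ER to endosomes, was at 9619 and 10123 CPM, with a ratio of 0.07 (0.03 to 0.11). Without the cell of 88367 UMIs the ratios were 0.13 for H2-Ab1, 0.46 for H2-Eb1 and 0.03 for Cd74. Over all alternatives H2-Ab1 ran from 0.031 to 0.42, H2-Eb1 from 0.17 to 0.79, and Cd74 was below 0 in 5 of 16 (-0.072 to -0.0076). None of these 3 genes was past 2-fold, which 53 of 4044 genes tested in pDC (1.31%) were in either direction. Tested here means that a gene reached 50 CPM in WT or cit pDC and was held against a fold of 2. The per-cell medians, which are not scaled to depth, were 28.5 and 21 UMIs for H2-Ab1 and 94 and 61 for Cd74, and the WT ranges of 0 to 210 and 1 to 457 UMIs lay almost wholly within the cit ranges of 0 to 558 and 3 to 1161, whose upper ends are the cell of 88367 UMIs.

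**Figure D3:**
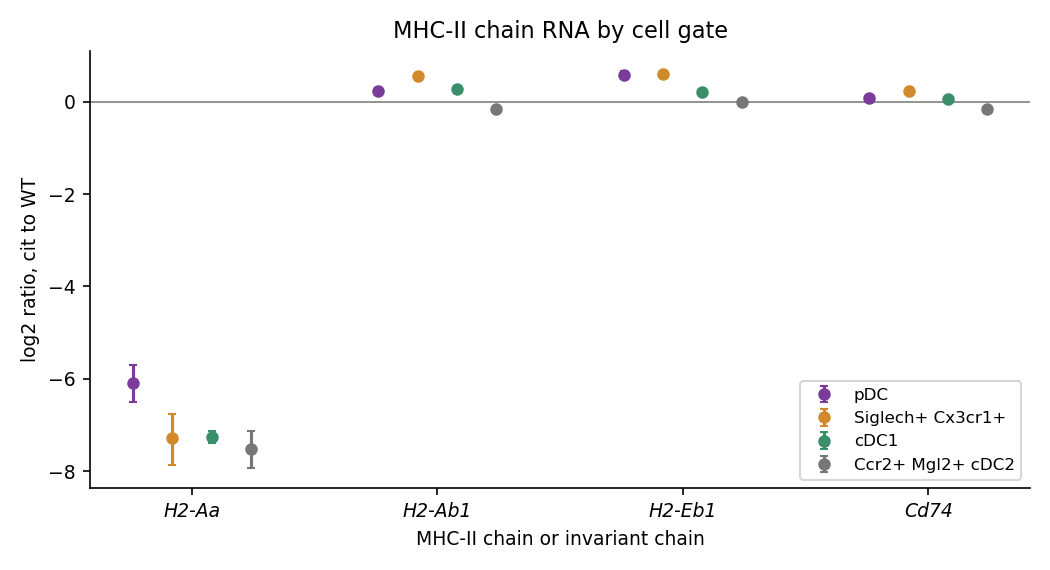
Log2 ratio of cit to WT summed RNA for H2-Aa, H2-Ab1, H2-Eb1 and Cd74 in pDC, Siglech+ Cx3cr1+ cells, cDC1 and Ccr2+ Mgl2+ cDC2, with 95% counting intervals as bars. H2-Aa lies between -7.51 and -6.09 in the 4 gates, while the other 3 genes lie between -0.17 and 0.60.

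Of 15 further MHC-II pathway genes, 14 were found and 11 reached 50 CPM in either library. None was past 2-fold, 9 had ratios above 0, 2 of these having reached it in cit alone, and the median log2 ratio was 0.22, or 0.19 over the 9 genes that reached it in both libraries, beside 0.00 over all 4044 genes tested in pDC. Without the largest cell 10 were tested, 8 had ratios above 0 and the median was 0.14. Ciita, the transactivator of MHC-II genes, was at 227 and 301 CPM (0.41, 0.17 to 0.66). March1, a ubiquitin ligase that removes MHC-II from the surface, was at 235 and 309 CPM (0.39). Ifi30, a thiol reductase of antigen processing, was at 627 and 764 CPM (0.29), and without the largest cell March1 and Ciita gave 0.15 and 0.14. Ctsl stood apart within the list, with a log2 ratio of -0.54 (-0.67 to -0.40), and it is also the member that stood furthest above other cells.

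MHC-I genes differed little between WT and cit pDC. All 18 listed genes reached 50 CPM, none was past 2-fold, 12 had ratios below 0, and the median log2 ratio was -0.13. The median was -0.077 without the largest cell, and it turned to 0.027 in the strictest gate, which required a Ly6d UMI, no Cx3cr1 UMI, at least 5% ribosomal UMIs and under 10 UMIs of 8 genes led by Gpr141 and Dscam. H2-K1, a classical MHC-I heavy chain, was at 2033 CPM in WT and 1831 in cit (-0.15), and H2-D1, the other, at 1801 and 1601 CPM (-0.17). B2m, the light chain of MHC-I, was at 2042 and 1704 CPM (-0.26). The lowest ratio of the list was that of H2-T23, at 370 and 243 CPM (-0.61, -0.84 to -0.38). Nlrc5, the MHC-I transactivator, was at 142 and 135 CPM (-0.07, -0.41 to 0.27). In genes tested in both gates, the MHC-I median of the compared gates was 0.19 in Siglech+ Cx3cr1+ cells, 0.21 in cDC1 and 0.18 in Ccr2+ Mgl2+ cDC2. For H2-K1 the pDC ratio was lower than in those gates by 0.39, 0.69 and 0.51 on the log2 scale.

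Genes of the ER barely differed between WT and cit pDC. Of 35 ER folding genes, 29 reached 50 CPM, none was past 2-fold, and their median log2 ratio was 0.11. The background in pDC was 30 genes of 4044 (0.742%) at 2-fold or more above and 23 (0.569%) at 2-fold or more below WT. Hspa5, the ER chaperone BiP, was at 420 CPM in WT and 563 in cit (0.42, 0.24 to 0.60). Hsp90b1, the chaperone GRP94 and the gene of the list with the most UMIs, was at 734 and 644 CPM (-0.19, -0.34 to -0.04). The highest ratio was that of Sdf2l1, a cofactor of BiP, at 57.5 and 105 CPM (0.87, 0.41 to 1.33). Summed over the list, the level was 5065 CPM in WT and 5387 in cit. The sign of the median was not stable, since it ran from -0.10 to 0.12 over the alternative gates and filters.

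The compared gates stood far from this. In genes tested in both gates, the pDC ratio was lower for 25 of 26 ER folding genes against Siglech+ Cx3cr1+ cells (medians 0.12 and 1.13), for 28 of 28 against cDC1 (0.11 and 1.32) and for 19 of 23 against Ccr2+ Mgl2+ cDC2 (0.12 and 0.58). Hspa5 went from 467 to 3226 CPM in cDC1, from 254 to 1193 CPM in Siglech+ Cx3cr1+ cells and from 210 to 564 CPM in Ccr2+ Mgl2+ cDC2. Its pDC ratio was lower than these by 2.37 (2.18 to 2.55), by 1.81 (1.47 to 2.15) and by between 0.61 and 1.40 (1.43 against 0.42). ER folding genes at 2-fold or more above WT were 15 of 28 in Siglech+ Cx3cr1+ cells, where 1.98% of all genes tested were, 20 of 31 in cDC1 (3.98% of all) and 11 of 23 in Ccr2+ Mgl2+ cDC2 (2.50% of all). For all ER lists, counts and medians of the compared gates can include genes that reached 50 CPM in cit alone, which fixes their direction. Such genes were separated for pDC only. In WT, pDC had the highest summed level of the list among the 4 gates, at 5065 CPM against 4927 CPM in cDC1, 3477 CPM in Siglech+ Cx3cr1+ cells and 2943 CPM in Ccr2+ Mgl2+ cDC2. In cit the order differed, with 18093 CPM in cDC1 and 8153 CPM in Siglech+ Cx3cr1+ cells above the 5387 CPM of pDC and 5153 CPM in Ccr2+ Mgl2+ cDC2.

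The same held for translocation and quality control. Of 31 genes of translocation into the ER and N-glycosylation, 29 were tested, none was past 2-fold, and their median was -0.08, against 0.64, 0.97 and 0.56 in Siglech+ Cx3cr1+ cells, cDC1 and Ccr2+ Mgl2+ cDC2. Sec61b, a subunit of the translocon and the gene of the list with the most UMIs, was at 752 and 698 CPM in pDC (-0.11). Of 22 genes of the unfolded protein response (UPR) and of ER-associated degradation (ERAD), 14 were tested, none was past 2-fold, and their median was -0.02, or 0.021 without the largest cell and -0.15 over the 12 that reached the minimum in both libraries. Xbp1, a transcription factor of the UPR, was at 185 and 137 CPM in pDC (-0.44, -0.76 to -0.12), while it went from 66.5 to 103 CPM in cDC1 (0.62). Atf6, an ER stress sensor and the gene of this list with the most UMIs, was at 278 and 309 CPM (0.15). Of 17 ATF4-related genes, Atf4 and Slc3a2 alone reached 50 CPM, with ratios of 0.28 and -0.25. Trib3, Asns and Chac1, known ATF4 targets, had 0 UMIs in WT and 4, 4 and 1 in cit pDC.

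**Figure D4:**
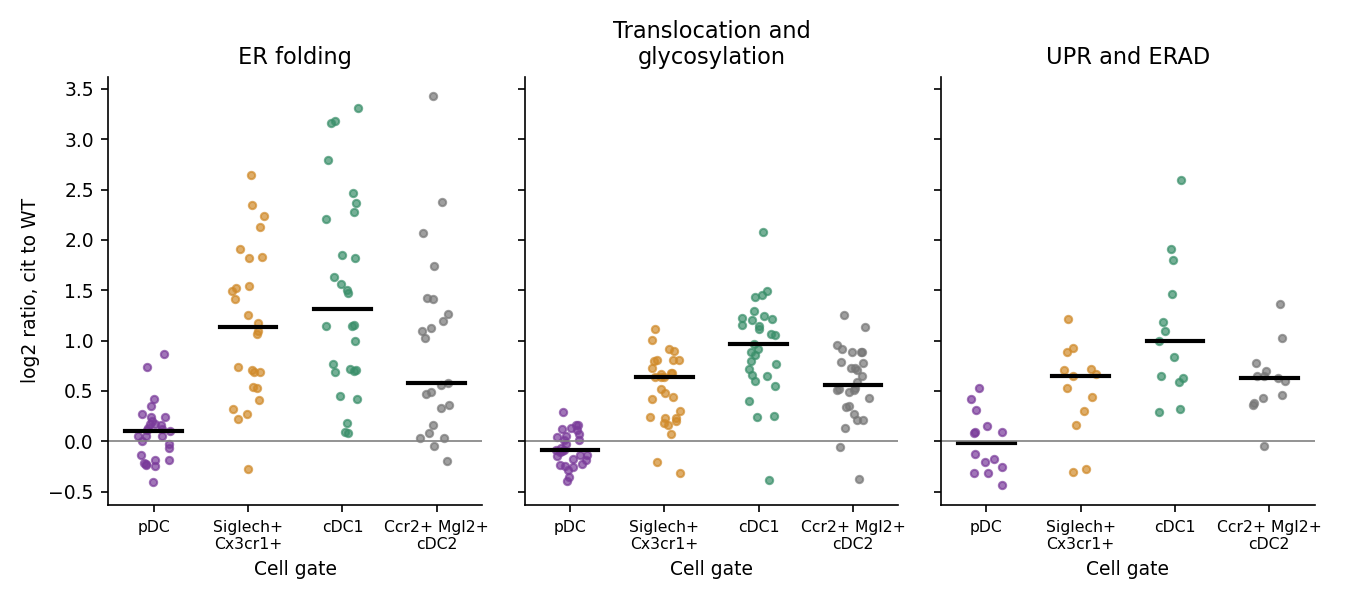
Log2 ratio of cit to WT for each gene of the ER folding, translocation and glycosylation, and UPR and ERAD lists in 4 gates, with 1 point per gene that reached 50 CPM in pDC and in the gate, and bars at the medians. In pDC the medians are 0.11, -0.08 and -0.02, whereas the medians of the other gates lie between 0.56 and 1.32.

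Of 10 pDC transcription factors, all were tested, none was past 2-fold (1.31% of all tested genes were), 6 had ratios below 0 and the median log2 ratio was -0.05. When the largest cell was left out, 4 had ratios below 0 and the median was 0.053. Tcf4 had a ratio of -0.06 (-0.13 to 0.01), which was 0.054 without that cell and above 0 in 8 of 16 alternatives, up to 0.18. Irf8, which pDC and cDC1 require, was at 2188 and 1801 CPM (-0.28), Runx2, needed for pDC to leave the bone marrow, at 2085 and 1745 CPM (-0.26, but above 0 in 2 of 16 alternatives at 0.017 and 0.050), and Spib, an ETS factor of pDC and B cells, at 153 and 104 CPM (-0.56, -0.92 to -0.20). Zeb2, which represses Id2 in pDC, was at 1079 and 1263 CPM (0.23). Factors of cDC summed to 437 CPM in WT and 619 in cit. Of 6 tested, 3 (Batf3, Id2 and Klf4) reached the minimum in cit alone, which fixes their direction, and Zbtb46, Relb and Rbpj had ratios of 0.89, 0.47 and 0.11. Zbtb46, a factor of committed cDC, was at 55.0 and 102 CPM (0.89), and Batf3, required for cDC1, at 35.2 and 61.7 CPM (0.81). Without the largest cell Batf3 was under the minimum and 4 of these genes were tested, 1 with a ratio below 0.

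Of 13 tested surface genes of pDC, 12 had ratios below 0, none was past 2-fold, and the median was -0.18. With the largest cell left out, 8 had ratios below 0 and 5 above, with a median of -0.078. Bst2 had -0.37 (-0.45 to -0.30) and Ly6c2, the monocyte and pDC antigen Ly-6C, -0.01 (-0.12 to 0.11), which was 0.13 (0.01 to 0.24) without that cell. The sole member above 0 with all cells was Plac8, at 2526 and 2560 CPM (0.02, -0.06 to 0.10). Of 11 further tested pDC genes, all had ratios below 0, with and without that cell, with medians of -0.38 and -0.28. Klk1b27, a kallikrein, was past 2-fold at 115 and 50.4 CPM (-1.19, -1.69 to -0.71), and in 10 of 16 alternatives, which ran from -1.34 to -0.66. Dntt, the template-independent DNA polymerase of lymphoid precursors, was at 88.4 and 63.8 CPM (-0.47) in pDC and at 0.0401 and 0.0279 CPM in other cells.

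Cox6a2, a muscle-type subunit of cytochrome c oxidase that pDC also express, differed in direction between gates. In pDC it was at 610 CPM in WT and 419 in cit (-0.54, -0.72 to -0.36). In cDC1 it had 1 UMI in WT and 2666 in cit, a log2 ratio of 10.77 (8.29 to 16.07), and in Siglech+ Cx3cr1+ cells 2 and 114 UMIs (5.15, 3.27 to 8.22). Ccr2+ Mgl2+ cDC2 had 1 and 8 UMIs. Among these gates only pDC held over 2 UMIs of it in WT.

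Of the genes that reached 100 CPM in WT or cit pDC, the 10 with the highest ratio in cit pDC included Gpr141 (2.68), Ube2e2 (1.50), Sirpb1a (1.45), Chn2 (1.43), Dock5 (1.40), Ifitm3 (1.36), Dscam (1.22), Specc1 (1.19) and Nav1 (1.09). All of these stood lower in pDC than in other cells of both libraries. Gpr141, an orphan G protein-coupled receptor, had 27 UMIs in WT and 144 in cit pDC, 23.2 and 148 CPM, against 224 and 489 CPM in other cells. A UMI of Gpr141 was found in 12 of 106 WT and 20 of 113 cit pDC, and the largest cell held 43 of the cit UMIs. Ifitm3, an interferon-induced antiviral membrane protein, was at 131 and 335 CPM, against 453 and 978 CPM. Without the largest cell, Gpr141 (2.30), Ifitm3 (1.22), Ube2e2, a ubiquitin-conjugating enzyme (1.04), Specc1 (1.04) and Dock5 (1.10) were still past 2-fold among these, and the number of all genes 2-fold higher was 12 of 4008 instead of 30 of 4044. Gpr141 was past 2-fold in all 16 alternatives. However, it leads the 8 genes by which some of these left out cells, so few of its UMIs remained there. Like Sirpb1a, Chn2, Dock5 and Specc1, it reached 100 CPM in cit alone, which fixes the direction. Ube2e2 was past 2-fold in 11 of the alternatives (range -0.012 to 1.82), Sirpb1a in 11, Specc1 in 11, Chn2 in 12, Dock5 in 12, and Dscam and Nav1 in 8. Of the 10 highest, 3 were past 2-fold with Siglech scaled to depth and 4 without cells over 2 times the median UMIs. Leaving out the largest cell put Chn2 (0.94), Sirpb1a (0.89) and Nav1 (0.82) under 2-fold. Dscam, a cell adhesion molecule, had 0.89 without that cell, and 53 of its 179 WT UMIs and 97 of its 349 cit UMIs came from 1 cell each.

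The 10 lowest were H2-Aa (-6.09), Gm47283 (-1.82), Agbl1 (-1.60), Klk1b27 (-1.19), Gm21762 (-1.15), Fyb2 (-1.11), Nav2 (-0.96), Cd209d (-0.94), Fam169b (-0.93) and Cblb (-0.84). H2-Aa, Gm47283 and Agbl1 were past 2-fold in all 16 alternatives, Fyb2 in 12, and Klk1b27 and Gm21762 in 10. However, H2-Aa, Gm47283, Agbl1, Klk1b27, Fyb2, Nav2 and Fam169b reached 100 CPM in WT alone, which fixes the direction. Gm47283 was lower also in other cells, at 257 CPM in WT and 89.7 in cit. The annotation places this gene on chromosome Y, although the mice were female, and the origin of its reads was not tested. Agbl1, a deglutamylase, was at 122 and 40.1 CPM in pDC and at 0.481 and 0.335 CPM in other cells. Klk1b27, Gm21762 and Fyb2 were likewise under 1 CPM in other cells. Cblb, a ubiquitin ligase that restrains receptor signaling, was the one gene besides H2-Aa among the 10 to stand lower in pDC than in other cells of both libraries.

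Set by level, genes at 8-fold or more above other cells had a median cit to WT log2 ratio of -0.38 (81 genes), those at 2-fold to 8-fold above -0.19 (299 genes), those within 2-fold 0.01 (3351 genes) and those at 2-fold or more below 0.32 (313 genes). Over the 4048 genes that could be compared with other cells, 325 (8.03%) were at 2-fold or more below them in both libraries. The bins are not the same sets as the genes counted at 2-fold in both libraries, so their gene numbers differ. Without the largest cell the medians were -0.27, -0.10, 0.00 and 0.12. Both axes use the same pDC UMIs, and genes of a library are not independent, so this is a description. When Siglech was required at 1 in 1000 UMIs in place of 5 UMIs, which left 99 WT and 97 cit pDC, Siglech itself had -0.21 in place of -0.50, Grm8 -0.34 in place of -0.72 and Dscam 0.14 in place of 1.22. The part of cells near the threshold in these differences was not tested further.

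**Figure D5:**
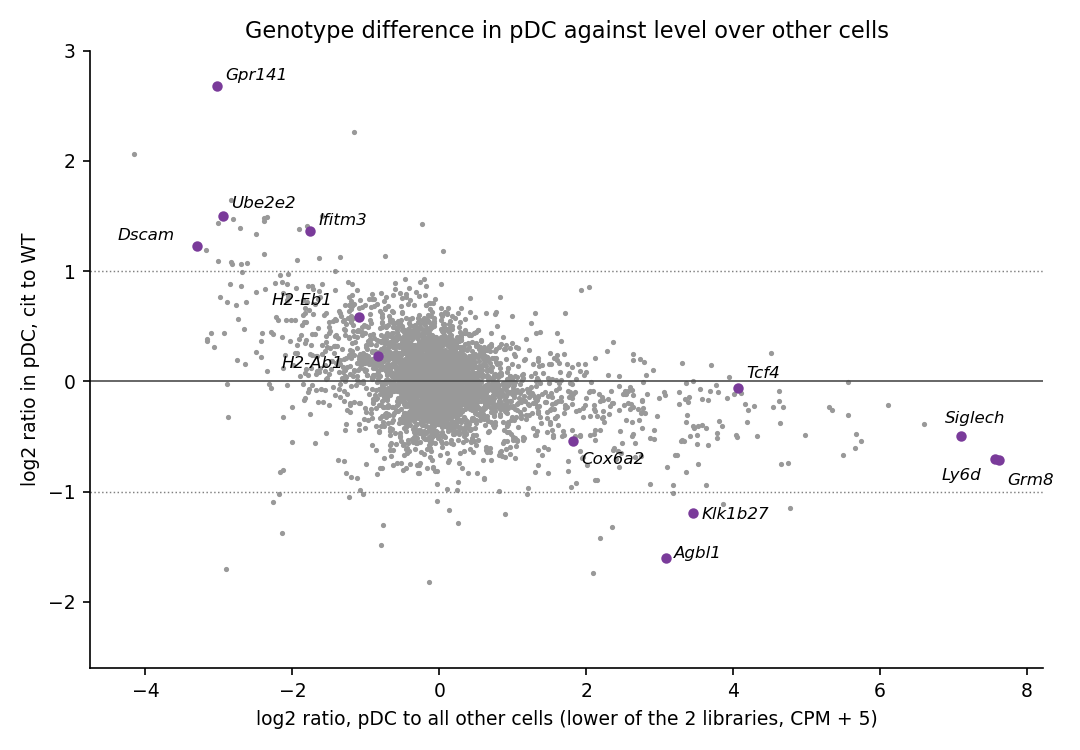
Each tested gene by its log2 ratio of pDC to all other cells (horizontal, lower of the 2 libraries, CPM + 5) and its cit to WT log2 ratio in pDC (vertical), with dotted lines at 2-fold and H2-Aa (-6.09) below the axis. Genes on the right, such as Siglech, Ly6d and Grm8, lie mostly under 0, and the genes past 2-fold above WT lie mostly on the left.

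Of 20 listed genes of nucleic acid sensing, 18 names were found and 12 tested, none past 2-fold (1.31% of all tested genes were), with a median of -0.14, or -0.077 without the largest cell. Tlr7, the endosomal receptor for single-stranded RNA, was at 161 and 132 CPM (-0.29, -0.62 to 0.05). With every cell cut at random to 2000 UMIs, and 3 shallower cit pDC left out, a Tlr7 UMI was found in 24.5% of WT and 27.3% of cit pDC, against 67.9% and 53.1% unthinned. The thinned shares of NK-like cells, as a background, were 3.13% in WT and 5.56% in cit. Tlr9, the receptor for CpG DNA, had 9 and 2 UMIs and was not tested. Unc93b1, which escorts these receptors out of the ER, was at 708 and 635 CPM (-0.16, -0.31 to -0.01). Pik3ap1, an adapter of TLR and B cell receptor signaling, was at 462 and 351 CPM (-0.40, -0.60 to -0.20).

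Type I interferon RNA was at 0 or 1 UMI in these naive pDC. The 19 listed genes had 0 UMIs in WT pDC, which allows a level of up to 2.58 CPM or a share of up to 2.83% of cells with a UMI, and 1 UMI, of Ifnk, in cit. A count of 0 does not limit the share of cells that express these genes. Of 28 interferon-stimulated genes, 10 were tested, and Ifitm3 alone was past 2-fold (1.31% of all tested genes were). Ifitm3 was past 2-fold in 15 of 16 alternatives, and not without cells over 2 times the median UMIs (0.91). Isg15, a ubiquitin-like modifier, was at 53.2 and 79.2 CPM (0.57, 0.07 to 1.08). The median of the list was 0.11, beside -0.15 in Siglech+ Cx3cr1+ cells, 0.42 in cDC1 and 0.24 in Ccr2+ Mgl2+ cDC2. Ifnar1 and Ifnar2, the receptor chains for type I interferon, were at 164 and 129 CPM (-0.35) and at 597 and 501 CPM (-0.25).

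Of 16 receptor and migration genes, 9 were tested, none was past 2-fold, and 7 had ratios below 0. Flt3, the cytokine receptor on which DC development depends, was at 306 and 307 CPM (0.00, -0.22 to 0.23), and Itga4, an integrin chain, at 411 and 597 CPM (0.54, 0.36 to 0.71). Cxcr3, a chemokine receptor of inflamed tissue, had 58 and 18 UMIs, 49.8 and 18.5 CPM, which is just under the minimum. Itgax, which encodes CD11c, had a UMI in 10.4% of WT and 17.3% of cit pDC after thinning, not above the 21.9% and 44.4% of NK-like cells, whose median depth was 4654 and 4466 UMIs. Of 15 cytokine genes, Ccl5 (0.37) and Tgfb1 (0.04, or -0.035 without the largest cell) alone were tested.

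Of 13 tested immediate-early genes, 9 reached the minimum in both libraries, and 7 of these had ratios below 0, with a median of -0.22. Egr1, which reached it in WT alone, was at 76.4 and 33.9 CPM (-1.17, -1.79 to -0.58) and was past 2-fold in 15 of 16 alternatives, Jun was at 352 and 215 CPM (-0.71) and Fos, which also reached it in WT alone, at 86.7 and 48.4 CPM (-0.84). These genes also respond to tissue handling, and a difference in handling between the libraries cannot be told apart from the genotype. Maturation genes of DC were mostly under the minimum, with 5 of 20 tested, of which 3 reached it in both libraries, with a median of -0.034. Without the largest cell Cd86, a costimulatory ligand, was past 2-fold at 64.4 and 22.6 CPM (-1.51, -2.30 to -0.78), whereas with that cell it was at 64.4 and 56.6 CPM (-0.19). Ccr7, the lymph node homing receptor, had 37 and 14 UMIs. Of 17 cell cycle genes only Hmgb2 (-0.47) and Tubb5 (-0.30) were tested, and Mki67 had 18 and 8 UMIs. Of 50 nuclear genes of oxidative phosphorylation, 48 were tested, with a median of 0.04 and none past 2-fold. Of 14 BCL2 family genes, 4 were tested with a median of 0.07, or 0.0055 without the largest cell, and Mcl1, a survival factor, was at 228 and 241 CPM (0.08).

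Markers of other cells were read in the same pDC. Of 14 cDC2 markers, 8 were tested and 7 of these reached the minimum in both libraries, of which 6 had ratios above 0. The summed level of the list was 1200 CPM in WT and 1498 in cit, with S100a4 holding the most UMIs at 210 and 350 CPM. Ffar2, a receptor for short-chain fatty acids, reached the minimum in cit alone, at 24.9 and 70.0 CPM (1.49), and it was past 2-fold in 11 of 16 alternatives, which ran from -0.24 to 1.82. Esam, a cDC2 marker, had 1 and 5 UMIs. The cDC1 list summed to 2671 and 2279 CPM, of which Irf8 alone made 2188 and 1801 CPM, and Xcr1 had 10 and 7 UMIs. The transitional DC list summed to 816 and 959 CPM, with Crip1 at the head (291 and 465 CPM) and 23 and 24 Cx3cr1 UMIs.

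Some lymphoid markers were near 0, while others, such as Fcrla, Il7r, Klrd1 and Ighm, were not. Neither were Ccl5 of the NK list and Igkc of the plasma cell list, at 176 and 190 CPM in WT pDC. Cd3g had 0 UMIs in both libraries, Cd79a 1 and 0, and Ncr1, Gzma and Nkg7 0. The B cell list summed to 213 and 174 CPM, of which Fcrla made 204 and 153 CPM, the T cell list to 297 and 210 CPM, of which Il7r made 284 and 202 CPM, and the NK list to 554 and 580 CPM, of which Klrd1 made 369 and 342 CPM. The plasma cell list summed to 938 and 682 CPM, led by Ighm (656 and 468 CPM), while Jchain had 4 and 0 UMIs. The monocyte list summed to 1596 and 1683 CPM, led by Ly6c2, with no Fn1 or F13a1 UMI. Macrophage, neutrophil and erythroid lists had no tested gene and summed to 25.8 and 54.5, to 3.43 and 11.3 and to 4.29 and 8.23 CPM. Adgre1, which encodes F4/80, led the macrophage list at 15.5 and 49.4 CPM, and C1qa had 2 and 1 UMIs.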

How the data were processed

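The authors aligned and counted the reads with Cell Ranger 5.0.1 against mm10 (GRCm38) and deposited raw UMI counts of 32285 genes per called cell, which were not normalized. Per the labels, Seurat was used downstream, and no such output was used here. The gate, the gene lists and the compared gates (Siglech+ Cx3cr1+ cells, cDC1, Ccr2+ Mgl2+ cDC2 and NK-like cells) were chosen with earlier results of these data known. No cell was removed. No doublet caller was run. Alternatives left out cells with 2 or more UMIs of genes of other types, or cells with over 2 times the median UMIs. The first of these rested mostly on Igkc, since it left out 41 WT and 29 cit pDC, and without Igkc 2 and 3. It therefore does not serve as a filter of doublets. UMIs were summed per gate and scaled to CPM, and genes that reached 50 CPM in WT or cit were held against a fold of 2. Ratios have exact conditional binomial intervals, and differences of ratios between gates normal intervals from the 4 UMI sums. Since 3′ counts do not scale with transcript length, levels were compared between cells, and the gene of a list with the most UMIs is named as a count, not as the most abundant transcript. Named genes were those of the rule and of the pDC, MHC, interferon, cytokine, receptor and sensing lists, the 10 furthest above other cells, the 10 highest and 10 lowest ratios at 100 CPM or more, and members of other lists that were past 2-fold or most abundant. Others, such as Hspa5, Sdf2l1, Xbp1, the ATF4 targets, Jun, Fos, Mcl1 and Mki67, were chosen for their role with values known. The total UMIs were 51020804 in WT and 72652201 in cit cells. Alternatives were other gates, scalings and minimums, and 7 more were chosen after seeing the data. Python 3.11.15, numpy 2.4.6, scipy 1.17.1, pandas 2.3.3 and matplotlib 3.10.9 were used, and the calculations were tested on simulated data. Positions came from GENCODE vM21 and promoter stretches from RefSeq (GRCm38.p6). Some genes that the rule would name are not reported here.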

Additional observations from a re-analysis of the deposited data

Results flagged for a closer look

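This section covers the genes of the rule, the other pDC markers, the MHC genes and the ER lists. It also covers the genes furthest above other cells and those named for the highest and lowest ratios. Members of other lists, such as Itga4, are not covered. Genes are given whose cit to WT log2 ratio had opposite signs in pDC and in another gate. Both counting intervals had to lie off 0, and that of pDC also without the largest cell. Each value is the pDC ratio minus that of the other gate. None of these differences was tested, since each gate is 1 library per genotype. Cox6a2 differed most, by -5.69 against Siglech+ Cx3cr1+ cells and by -11.3 against cDC1, where WT held 1 UMI.

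Lower in cit pDC and higher elsewhere were Xbp1 (-1.06 against cDC1, -1.47 against Ccr2+ Mgl2+ cDC2), Sec11c, a subunit of the signal peptidase (-1.27 and -1.24), Irf8 (-0.41 and -1.88), H2-K1 (-0.69 and -0.51, and -0.39 against Siglech+ Cx3cr1+ cells) and H2-D1 (-0.43 against cDC1, -0.31 against Siglech+ Cx3cr1+ cells). The same held for Bst2 (-0.97) and Ctsl (-1.71) against cDC1, and for Runx2 (-1.04) and Cd209d (-2.78) against Ccr2+ Mgl2+ cDC2.

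Higher in cit pDC and lower elsewhere was Nav1, by 1.47 against Siglech+ Cx3cr1+ cells, 1.50 against cDC1 and 1.55 against Ccr2+ Mgl2+ cDC2. Dscam differed by 1.63 against cDC1 and 1.77 against Ccr2+ Mgl2+ cDC2, and Ifi30 by 0.57 against Siglech+ Cx3cr1+ cells and 0.60 against cDC1. Against Siglech+ Cx3cr1+ cells the difference was 2.07 for Sirpb1a and 2.13 for Ube2e2. Against cDC1 it was 1.54 for Chn2, 1.74 for Specc1, 1.88 for Dock5 and 0.25 for Psme1, an activator subunit of the proteasome. H2-Ab1 differed by 0.38 against Ccr2+ Mgl2+ cDC2. Dscam, Nav1, Ube2e2, Sirpb1a, Chn2, Dock5 and Specc1 stood lower in pDC than in other cells. They were named for their high pDC ratios, as Cd209d was for its low one, so the sign in pDC came with the choice. Sirpb1a, Chn2, Dock5 and Specc1 reached 100 CPM in cit pDC alone. Without the largest cell, the pDC ratios from Dscam to Specc1 were 0.89, 0.82, 1.04, 0.89, 0.94, 1.10 and 1.04 in the order given.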

How the results depend on the processing

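No paired analysis was possible because each genotype has 1 library. H2-Aa stayed between -6.27 and -5.60, the latter where cells were required to have a Ly6d UMI, no Cx3cr1 UMI, under 10 UMIs of 8 genes led by Gpr141 and Dscam and at least 5% ribosomal UMIs (73 WT and 69 cit cells, "strict gate"). The share difference stayed between -0.487 and -0.103 points. The ER folding median was 0.047 without cells with genes of other types, 0.042 without cells under 5% ribosomal UMIs, -0.10 without cells with 10 or more UMIs of the 8 genes, -0.0013 with Siglech scaled to depth and -0.056 in the strict gate. The MHC-I median was -0.026 as a mean over cells, -0.066 at 3 Siglech UMIs, -0.022 without cells over 2 times the median UMIs, -0.058 without Cx3cr1 UMIs, -0.057 without the 8-gene cells, -0.082 with scaled Siglech, -0.077 without the largest cell and 0.027 in the strict gate. Genes 2-fold higher numbered 19 as a mean over cells, 19 at 3 Siglech UMIs, 46 without genes of other types, 15 without cells over 2 times the median, 12 at a minimum of 100 CPM, 322 at 10 CPM and 12 without the largest cell. Genes 2-fold lower numbered 78 without genes of other types, 6 at 100 CPM, 291 at 10 CPM, 42 without the 8-gene cells and 38 in the strict gate. Of genes whose interval lay off 0, Klk1 (0.050 as a mean over cells, 0.0097 without Cx3cr1 UMIs, 0.16 without the 8-gene cells, 0.13 with scaled Siglech, 0.23 strict), Cd74 (-0.053 as a mean over cells, -0.014 without cells over 2 times the median, -0.0076 without the 8-gene cells, -0.021 scaled, -0.072 strict), Runx2 (0.017 without the 8-gene cells, 0.050 strict), Pacsin1 (0.013 scaled), Chn2 (-0.12 scaled) and Ube2e2 (-0.012 strict) changed sign. Of those whose interval held 0, ratios were above 0 for Tcf4 in 8 alternatives (0.047 to 0.18), Ly6c2 in 9 (0.018 to 0.22), Klra17 in 7 (0.0010 to 0.24), Ccr9 in 4 (0.0070 to 0.18), Cd300c in 2 (0.092 to 0.14) and Smim5 in 1 (0.11). The causes were not tested. The strict gate, the 8-gene, ribosomal, Cx3cr1, Ly6d, scaled Siglech and largest-cell alternatives were chosen after seeing the data, and the 8 genes were taken from those with high ratios. Genes near 50 CPM rest on few UMIs, and a replicate error could not be had.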

Other observations

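Iglc3, a lambda light chain constant region, was at 738 CPM in WT and 465 in cit pDC, against 0.842 and 5.44 CPM in other cells. Igkc was at 190 CPM in WT and 148 in cit pDC, against 207 and 16.7 CPM in other cells, so that in WT it was not above them. Mzb1, an ER protein of antibody-secreting cells, was at 80.7 and 57.6 CPM in pDC and at 1.30 and 0.488 CPM in other cells. The plasma cell genes Jchain, Sdc1 and Tnfrsf17 had 4, 3 and 0 UMIs in WT and 0, 1 and 0 in cit pDC. Without the cells that held 2 or more UMIs of genes of other types, Igkc included, 65 WT and 84 cit pDC were left. With Igkc not counted, 2 WT and 3 cit pDC held 2 or more such UMIs.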
